A study of Mus musculus with 8 samples.

Results

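Tight junction genes of endothelium, 9 in number and given by symbol, were followed in RNA of mouse brain endothelial cells: Cldn5, Cldn12, Ocln, Tjp1, F11r, Cgn, Cgnl1, Jam2 and Esam. All 9 of 9 were found among the 24394 gene symbols shared by the tables of the 8 libraries, and each was compared between YT-ECKO and WT. YT-ECKO libraries came from mice with the VE-cadherin-CreERT2 transgene, a tamoxifen-inducible Cre recombinase driven by an endothelial promoter, and floxed alleles of both Yap and Taz (mouse gene symbols Yap1 and Wwtr1). WT libraries came from wild-type mice. Both groups were labelled C57BL/6J, were taken at postnatal day 8 and consisted of endothelial cells sorted from brain by flow cytometry, with 4 libraries each. The Cre transgene, any exposure to tamoxifen and the deletion coincide in YT-ECKO and cannot be told apart here. Separate mice are not stated in the labels, and a p-value therefore covers the spread among libraries, which may be technical.

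Tight junctions seal the cleft between neighbouring endothelial cells, and in brain they are the paracellular part of the blood-brain barrier. Claudins form the strands of the seal, occludin is a second strand protein with 4 membrane passes, and the junctional adhesion molecules are immunoglobulin-type proteins at the same contact. Scaffold proteins below the membrane, among them ZO-1 (Tjp1), cingulin (Cgn) and paracingulin (Cgnl1), connect these proteins to actin. YAP and TAZ are transcriptional co-activators that lack a DNA-binding domain and act chiefly through TEAD factors.

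The start site regions of 3 members are shown because these genes stand for the steadiest claudin (Cldn5), the claudin that varied most (Cldn12) and the adhesion molecule with the largest difference among the abundant members (F11r). Sequences are from RefSeq on GRCm38.p6, run 5′ to 3′ on the strand of the gene, and span 250 bases before to 50 bases after an annotated start. Of the 9 members, 7 matched a RefSeq start site region, with 10 regions in all. The CCAAT box, a common promoter element, is in capitals (CCAAT, or ATTGG where it is on the other strand).
Cldn5, chr16:18776597-18776896, plus strand: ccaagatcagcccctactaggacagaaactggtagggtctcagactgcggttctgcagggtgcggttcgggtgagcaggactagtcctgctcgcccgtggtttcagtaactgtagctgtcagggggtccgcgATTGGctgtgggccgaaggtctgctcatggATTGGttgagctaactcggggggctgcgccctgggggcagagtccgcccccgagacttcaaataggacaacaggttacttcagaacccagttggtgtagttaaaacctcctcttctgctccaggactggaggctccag
F11r, chr1:171437311-171437610, plus strand: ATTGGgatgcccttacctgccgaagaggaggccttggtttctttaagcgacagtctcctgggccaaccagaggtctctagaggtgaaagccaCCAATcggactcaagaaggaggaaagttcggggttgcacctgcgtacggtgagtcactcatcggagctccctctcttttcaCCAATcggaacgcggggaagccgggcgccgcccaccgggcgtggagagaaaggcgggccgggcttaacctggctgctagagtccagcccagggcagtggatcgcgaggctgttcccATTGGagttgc
Cldn12, chr5:5514927-5515226, minus strand: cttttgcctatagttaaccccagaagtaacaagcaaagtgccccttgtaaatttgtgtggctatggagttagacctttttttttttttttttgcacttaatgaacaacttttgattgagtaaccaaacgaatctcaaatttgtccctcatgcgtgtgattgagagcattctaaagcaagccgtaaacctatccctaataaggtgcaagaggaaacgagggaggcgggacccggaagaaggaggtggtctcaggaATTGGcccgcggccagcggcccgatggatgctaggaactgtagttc
The TEAD motif was searched as GGAATG on both strands (CATTCC on the other strand). It stood in 0 of the 10 regions of members and in 14.7% of the 32851 regions of all genes. Its first letters, GGAA, are also the core of the ETS motif. A CCAAT box stood in 7 of the 10 regions of members and in 37.4% of all regions. The 7 regions belong to 5 of the 7 genes, Cldn5, Cldn12, Ocln, F11r and Cgn. The 3 regions of Cldn12 overlap and hold the same box, and 1 of the 2 regions of Ocln holds none. In Cldn5 its first letters lay 118 and 88 bases before the start. These are matches of letters, and other windows were not searched.

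Values are given as scaled reads, the linear form of the deposited log2 values. Low values lay near whole multiples of a step, which implied depths of 6.66 to 16.8 M reads. YT-ECKO 1 was the shallowest library and WT 1 the deepest. Both targeted genes were lower in every YT-ECKO library than in every WT library, with Wwtr1 at 348 to 2608 scaled reads in YT-ECKO against 5650 to 8220 in WT, and Yap1 at 9.29 to 605 in YT-ECKO against 1409 to 2833 in WT. The first passed the test used here (adjusted p by limma = 0.0113) and the second did not (0.175). All 8 pan-endothelial markers were above 0 in all libraries, and their summed level lay between 51129 and 84023 scaled reads in YT-ECKO, against 53264 to 72948 in WT. All 8 brain endothelial markers were above 0 as well, with sums of 41413 to 51624 in YT-ECKO and 42001 to 56267 in WT. Markers of other cells, apart from erythroid genes, were lower, with sums of 3.13 to 1227 in YT-ECKO and 116 to 1566 in WT for 8 mural cell genes, led by Rgs5 and Abcc9. For 6 astrocyte genes, led by Slc1a2 and Slc1a3, they were 0 to 387 in YT-ECKO and 207 to 565 in WT. For 6 neuronal genes, led by Rbfox3 and Stmn2, they were 17.6 to 1896 in YT-ECKO and 5.97 to 347 in WT. For 6 microglial genes, led by Cx3cr1 and Csf1r, they were 0 to 130 in YT-ECKO and 0 to 161 in WT, and Tmem119, P2ry12 and C1qa were listed at 0 in all libraries. Of the oligodendrocyte lineage genes, Olig1 and Sox10 were listed at 0 in all 8 libraries. Erythroid genes, 5 in number and led by Hba-a1 and Hba-a2, whose values were identical, summed to 13411 to 48278 in YT-ECKO and 13116 to 37504 in WT. The 8 epithelial genes, led by Ttr and Aqp1, summed to 9.29 to 1750 in YT-ECKO and 42.8 to 5176 in WT, with Kl, Folr1 and Cdh1 listed at 0 throughout. In bulk RNA, fewer cells of a type and less RNA per cell cannot be told apart.

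No tight junction gene passed the test between YT-ECKO and WT. The test was limma with Benjamini-Hochberg adjustment, run on log2 of scaled reads plus a pseudocount of 2 to the power 7, over 8706 genes. These are the genes that reached 10 scaled reads in 4 or more libraries, and log2 differences of low genes are understated on this scale. The test called 3 genes, or 0.0345% of those tested, and 0 of the 8 members that passed the filter on low values. Among these 8 members, 5 had a higher and 3 a lower mean log2 value in YT-ECKO, and their median difference was 0.03 log2 units. Over all tested genes the median was -0.09. Cgn did not pass the filter. The groups were free of overlap in 0 of the 8 tested members, against 3.4% of all tested genes, 2.07% lower and 1.33% higher in YT-ECKO. One member, Cldn12, had an unadjusted limma p under 0.05, as had 5.47% of all tested genes.

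**Figure D1:**
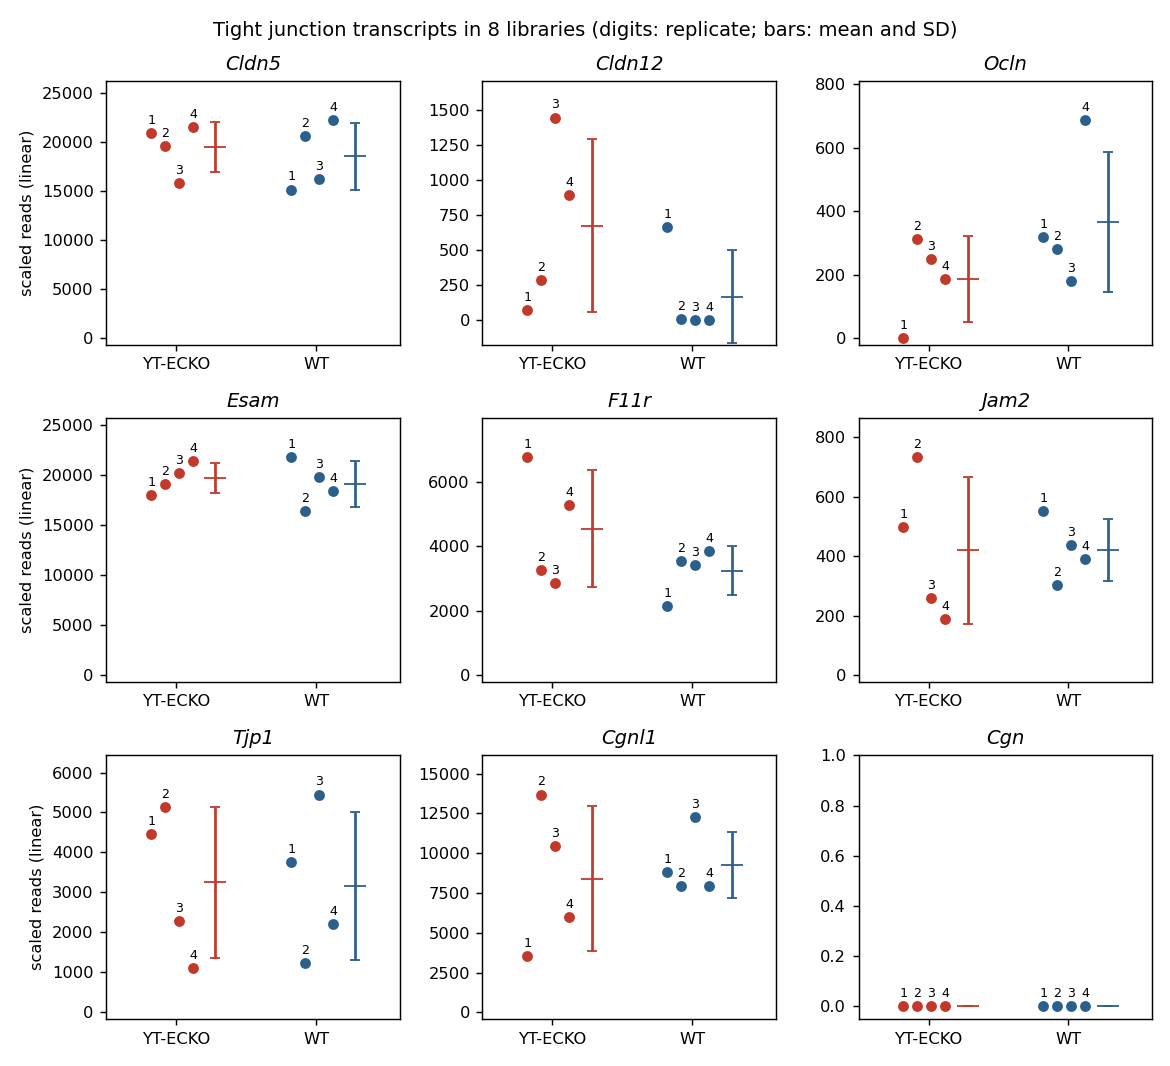
Scaled reads (linear, each panel with its own scale starting below 0) of the 9 tight junction genes in YT-ECKO (left) and WT (right). Dots are single libraries with their replicate digit and bars are the mean and SD of 4. Cldn5 and Esam stayed between 15160 and 22227 in all 8 libraries, Cldn12 was near 0 in 3 WT libraries, and Cgn was listed at 0 throughout.

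Cldn5 encodes claudin-5, the main strand-forming claudin of brain endothelium. It is a gene with 1 exon on chromosome 16 (18776847 to 18778262, plus strand, GRCm38). Libraries YT-ECKO 1 to 4 held 20882, 19647, 15859 and 21574 scaled reads, against 15160, 20652, 16215 and 22227 for WT 1 to 4. The groups overlapped over nearly their whole range, and each held both high and low libraries. The mean was 19490 ± 2549 in YT-ECKO and 18563 ± 3410 in WT (SD, n = 4 each). The log2 difference was 0.08 ± 0.22 (SE); the adjusted p by limma was 0.991, beside a two-sided exact permutation p of 0.771. Its 95% interval ran from -0.37 to 0.53, which is 0.772 to 1.44 times the WT level. Without WT 1 the difference was -0.01 ± 0.24 (SE).

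Cldn5 made up almost the whole claudin signal. Its share of the scaled reads of all claudin genes (Cldnd1 and Cldnd2 not counted) was 91.7% to 99.4% in YT-ECKO and 95.5% to 100% in WT, and the difference in share did not pass (two-sided exact permutation p = 0.257). Cldn12 gave most of the rest in every YT-ECKO library.

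Cldn12 encodes claudin-12, which is also found in brain endothelium. The gene lies on chromosome 5 (5489537 to 5514958, minus strand). The 4 YT-ECKO libraries, 1 to 4, held 74.0, 287, 1443 and 891 scaled reads, against 661, 5.78, 3.45 and 0 for WT 1 to 4. Every YT-ECKO library was above WT 2, 3 and 4, and WT 1 was within the YT-ECKO range. The log2 difference was 1.56 ± 0.71 (SE; 95% interval 0.09 to 3.03), with an unadjusted limma p of 0.0382, an adjusted p of 0.882 and a two-sided exact permutation p of 0.171. Without WT 1 the difference was 2.21 ± 0.71 (SE) and still not called. That larger value follows from leaving out the WT library that goes against the difference. Cldn12 then passes the filter on low values only through the YT-ECKO libraries. By p, Cldn12 was at rank 369 of 8706. The size depends on the pseudocount, since 3 WT values were close to 0. It was 5.10 ± 2.23 with a pseudocount of 1 and 0.75 ± 0.37 with a pseudocount of 2 to the power 9 (SE).

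Values near 0 beside much larger ones were common at this level. Of the 5640 tested genes that averaged 100 to 1000 scaled reads, 48.0% were listed at 0 in at least 1 library, against 3.72% of genes with a mean of at least 1000. Cldn12, Ocln and Jam2 are in the first of these ranges.

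Ocln encodes occludin and lies on chromosome 13 (100496507 to 100552718, minus strand). YT-ECKO 1 had a listed 0, followed by 311, 248 and 185 scaled reads for YT-ECKO 2 to 4, against 318, 279, 179 and 686 for WT 1 to 4. Of the values above 0, those of YT-ECKO lay inside the WT range, and WT 4 was the highest library. The log2 difference was -0.69 ± 0.59 (SE; 95% interval -1.92 to 0.53), with an adjusted p by limma of 0.990 and a two-sided exact permutation p of 0.257. Without YT-ECKO 1 it was -0.31 ± 0.57 (SE), and with a pseudocount of 1 it was -2.39 ± 1.82 (SE).

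Esam encodes an endothelial adhesion molecule of the immunoglobulin superfamily that sits at tight junctions and is also used as an endothelial marker. It lies on chromosome 9 (37528078 to 37538319, plus strand). Libraries YT-ECKO 1 to 4 held 17954, 19096, 20185 and 21425 scaled reads, against 21754, 16407, 19783 and 18433 for WT 1 to 4. The YT-ECKO values all lay inside the WT range. The mean was 19665 ± 1485 in YT-ECKO and 19094 ± 2252 in WT (SD, n = 4 each), which differed by 0.05 ± 0.21 on the log2 scale (SE; adjusted p by limma = 0.994, two-sided exact permutation p = 0.686). The 95% interval of -0.38 to 0.48 corresponds to 0.767 to 1.39 times the WT level. The ratio of Cldn5 to Esam, which no scaling of the libraries can change, was 0.996 ± 0.156 in YT-ECKO and 0.995 ± 0.279 in WT (SD, n = 4 each).

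F11r encodes JAM-A, the junctional adhesion molecule of epithelial and endothelial tight junctions, and lies on chromosome 1 (171437535 to 171464603, plus strand). The 4 YT-ECKO libraries, 1 to 4, held 6756, 3272, 2866 and 5279 scaled reads, against 2151, 3539, 3423 and 3862 for WT 1 to 4. YT-ECKO 1 and 4 were above all WT libraries, and YT-ECKO 2 and 3 were inside the WT range. The log2 difference was 0.42 ± 0.34 (SE; 95% interval -0.28 to 1.12), with an adjusted p by limma of 0.990 and a two-sided exact permutation p of 0.286. It was 0.21 ± 0.35 (SE) without YT-ECKO 1.

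Jam2, which encodes JAM-B, a related adhesion molecule of endothelium, lies on chromosome 16 (84774123 to 84825928, plus strand). Libraries YT-ECKO 1 to 4 held 499, 732, 259 and 190 scaled reads, against 552, 302, 439 and 390 for WT 1 to 4. The highest and the lowest library were both from YT-ECKO. Means were 420 ± 247 in YT-ECKO and 421 ± 104 in WT (SD, n = 4 each), and the log2 difference was -0.09 ± 0.54 (SE; adjusted p by limma = 0.996, two-sided exact permutation p = 0.800).

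Tjp1 encodes ZO-1, the scaffold that binds claudins, occludin and JAM-A and links them to actin. The gene lies on chromosome 7 (65296165 to 65527781, minus strand), and 3 other annotated genes overlap it, none of them in an exon of Tjp1. The 4 YT-ECKO libraries, 1 to 4, held 4473, 5138, 2277 and 1107 scaled reads, against 3756, 1236, 5450 and 2210 for WT 1 to 4. Both groups spanned nearly the same range, with a ratio of 4.92 between the highest and lowest of the 8 libraries. Means were 3249 ± 1879 in YT-ECKO and 3163 ± 1844 in WT (SD, n = 4 each). The log2 difference was 0.01 ± 0.48 (SE; adjusted p by limma = 0.998, two-sided exact permutation p = 0.971), with a 95% interval of -1.0 to 1.03. Its sign turned in 7 of 19 alternatives.

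Cgnl1 encodes paracingulin, a junctional protein related to cingulin, and lies on chromosome 9 (71626509 to 71771602, minus strand). Libraries YT-ECKO 1 to 4 held 3509, 13682, 10427 and 5968 scaled reads, against 8817, 7935, 12263 and 7957 for WT 1 to 4. YT-ECKO 1 and 4 were below all WT libraries and YT-ECKO 2 was above them, so the spread was wider in YT-ECKO. The mean was 8397 ± 4540 in YT-ECKO and 9243 ± 2055 in WT (SD, n = 4 each), which differed by -0.29 ± 0.34 on the log2 scale (SE; 95% interval -0.99 to 0.41; adjusted p by limma = 0.990, two-sided exact permutation p = 0.543). Without YT-ECKO 1 it was 0.06 ± 0.30 (SE).

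Cgn, which encodes cingulin, lies on chromosome 3 (94760069 to 94786492, minus strand) and was listed at 0 in all 8 libraries. The cingulin family was thus represented by Cgnl1 alone at this depth.

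**Figure D2:**
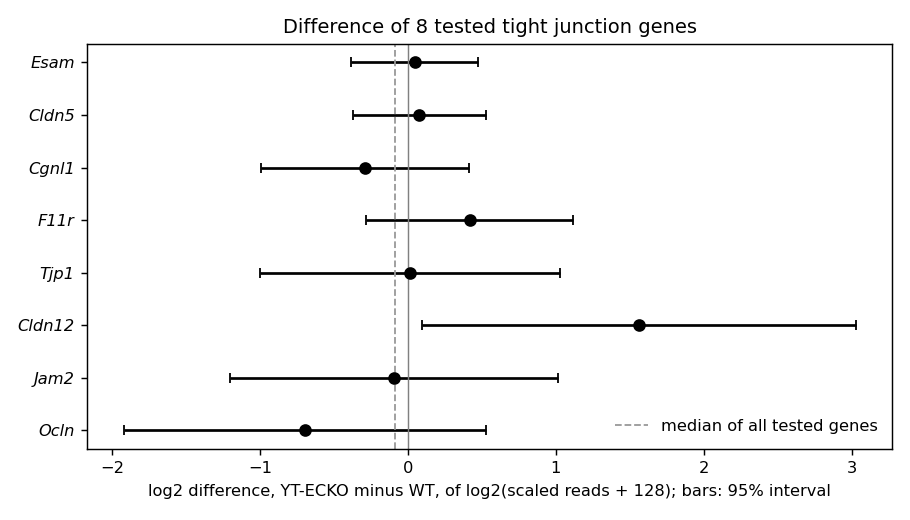
Log2 difference, YT-ECKO minus WT, of the 8 tested members (dots) with the 95% interval from limma (bars), ordered from the most abundant member at the top; the dashed line is the median of all tested genes, -0.09. Intervals are narrowest for Esam and Cldn5 and include 0 for every member but Cldn12, whose adjusted p was 0.882.

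Levels were ordered after division by the length of the longest annotated transcript, in scaled reads per kilobase. Cldn5 was highest with 13764 ± 1800 in YT-ECKO and 13110 ± 2408 in WT, followed by Esam with 10544 ± 796 in YT-ECKO and 10238 ± 1207 in WT (SD, n = 4 each). The ranges of these neighbours over the 8 libraries overlapped, and Cldn5 was the higher of the pair in 7 libraries. Esam lay above the next gene, F11r, in all 8 libraries, and their ranges did not overlap. F11r had 1804 ± 720 per kilobase in YT-ECKO and 1288 ± 298 in WT, and Cgnl1 had 1243 ± 672 in YT-ECKO and 1368 ± 304 in WT. These neighbours did not differ beyond their spread, with F11r higher in 4 of 8 libraries. Tjp1 followed with 461 ± 267 in YT-ECKO and 449 ± 262 in WT. Cldn12, Jam2 and Ocln had group means of 44.6 to 180 per kilobase, with ranges that all overlapped. The labels name a kit known for reading transcript ends, for which division by length would not apply, and do not settle which reads were made. Without division, Esam and Cldn5 had about the same level, Cgnl1 stood above F11r in 7 of 8 libraries, and the other places in the order were the same.

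Cldn5 and Esam were not only the most abundant members but also varied least between libraries of the same group. On the log2 scale of the test, the SD within groups was 0.14 for Esam and 0.23 for Cldn5. Of the 1935 tested genes that averaged at least 1000 scaled reads, 0.517% had a smaller SD than Esam and 4.91% had a smaller one than Cldn5, and the median SD was 0.53. Among the 111 genes that averaged at least 10000 scaled reads, 4.50% had a smaller SD than Esam and 23.4% a smaller one than Cldn5. F11r (0.47) and Cgnl1 (0.64) were closer to the middle of these genes, with 41.2% and 64.7% below them. Tjp1 had an SD of 0.92, and 85.8% of these genes were below it. Tjp1 thus had more than 3 times the SD of Cldn5 and of Esam, which are more abundant genes. Spread was smaller at higher levels, with a median SD of 0.69 over all tested genes. The scaffold genes Cgnl1 and Tjp1 had a larger SD than Esam, Cldn5 and F11r. Cgnl1 varied more than F11r while it averaged more scaled reads per gene (8820 against 3894). What sets these spreads was not tested.

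**Figure D3:**
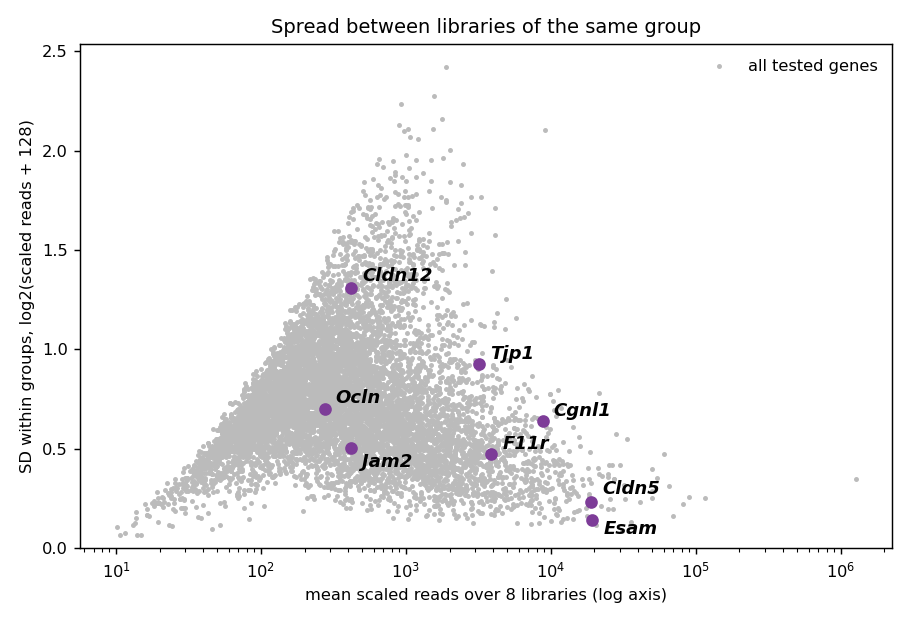
SD within groups on the log2 scale of the test against the mean of 8 libraries in scaled reads (log axis) for all 8706 tested genes (grey) and the 8 tested members (purple). Esam is near the lower edge of the abundant genes, Cldn5 lies in their lower part, and Tjp1 is above 85.8% of the genes that averaged at least 1000.

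Members differed in which libraries were high, in a way that cut across genotype and was noticed after the values were seen. Rn45s, the ribosomal RNA precursor, took 8.39% to 11.8% of the total in YT-ECKO 2, YT-ECKO 3, WT 1 and WT 3, and 13.1% to 14.8% in YT-ECKO 1, YT-ECKO 4, WT 2 and WT 4. Cldn5 was at 20652 to 22227 scaled reads in the 4 libraries with the larger Rn45s share, against 15160 to 19647 in those with the smaller share. F11r was likewise higher, at 3539 to 6756 against 2151 to 3423 scaled reads. Cgnl1 was lower, at 3509 to 7957 against 8817 to 13682 scaled reads. Esam and Tjp1 overlapped between these sets, at 16407 to 21425 against 19096 to 21754 and at 1107 to 4473 against 2277 to 5450 scaled reads. Of all tested genes with a mean of at least 1000, 13.2% (6.43% of all tested genes) did not overlap between the same sets of libraries, while 3.57% did not overlap between YT-ECKO and WT. Each set holds 2 libraries of each genotype, so the comparison of genotypes is balanced for it. A further fit of YT-ECKO against WT took log2 of the Rn45s share as a covariate. In it the log2 difference was 0.05 ± 0.18 for Cldn5, 0.36 ± 0.28 for F11r and -0.24 ± 0.30 for Cgnl1 (SE). What sets the Rn45s share was not tested.

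**Figure D4:**
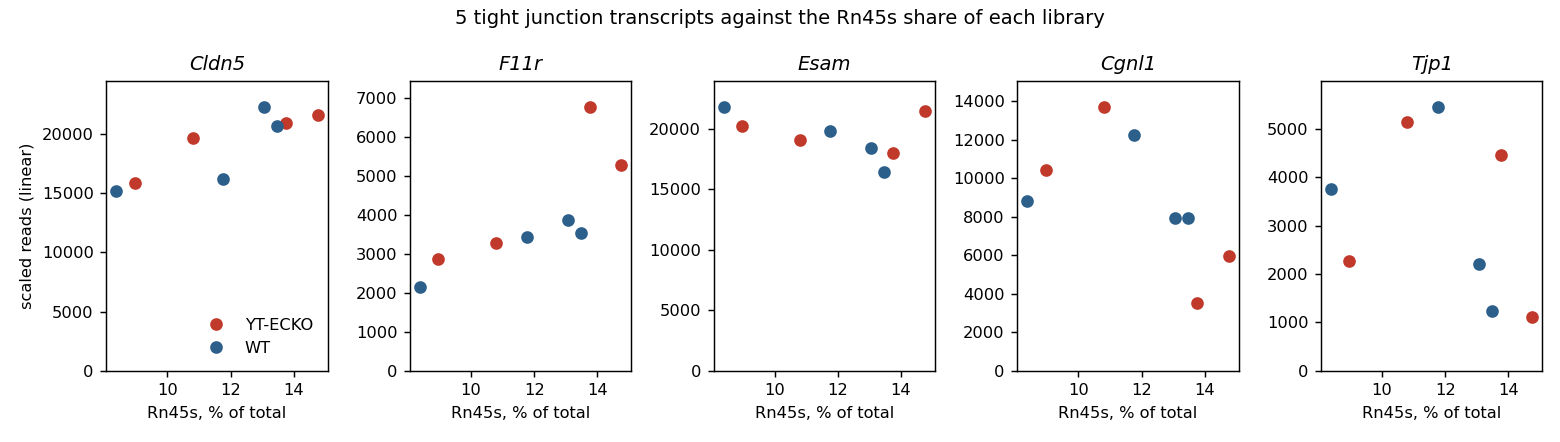
Scaled reads (linear, from 0) of the 5 abundant members against the share of Rn45s in each library's total, in percent; dots are single libraries of YT-ECKO (red) and WT (blue). Cldn5 and F11r are higher and Cgnl1 is lower in the libraries at 13.1% to 14.8% than in those at 8.39% to 11.8%.

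The genes whose pattern over the 8 libraries was most like that of a member were found by the root mean square distance of centred log2 values among 1930 other genes that averaged at least 1000 scaled reads. For Cldn5 these were Arpc3 (distance 0.0995 log2 units) and P4hb (0.102), with a median of 0.538 over all candidates. For Esam they were App (0.0874) and Ildr2 (0.101), the second being a gene of the angulin family. For F11r they were Rps4l (0.124) and Bad (0.192), and for Cgnl1 Tacc1 (0.134) and Hdac7 (0.154). For Tjp1 they were Prkacb (0.362) and Laptm5 (0.384). These distances grow with the spread of the gene itself, so they are not to be compared between members. The root mean square about the mean was 0.126 log2 units for Esam, 0.206 for Cldn5, 0.461 for F11r, 0.573 for Cgnl1 and 0.800 for Tjp1. A gene that did not vary at all would lie at that distance from the member. The median over candidates includes their own spread, so it is no measure of likeness in pattern.

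Other genes of the tight junction gave no call either. Of 24 further claudin and claudin domain genes, 19 were listed at 0 in all 8 libraries and 1, Cldnd1, was tested. Cldnd1 had 1762, 2354, 0 and 1517 scaled reads for YT-ECKO 1 to 4, against 1741, 1798, 2260 and 1273 for WT 1 to 4. It was thus within the WT range or near it in all but YT-ECKO 3, where it was listed at 0. Cldn11 reached at most 99.8 scaled reads in any library, Cldn1 56.8 and Cldn20 49.4. Cldn3, a claudin much used as a barrier marker, was listed at 0 in all 8 libraries.

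Of 16 other membrane proteins of the junction, 8 were tested, with 3 higher, 5 lower and 0 called, and a median log2 difference of -0.13. Lsr, which encodes angulin-1, a protein of junctions where 3 cells meet, had 17258, 13143, 14106 and 12669 scaled reads for YT-ECKO 1 to 4, against 14077, 16682, 14715 and 18395 for WT 1 to 4. The groups overlapped, and the log2 difference was -0.16 ± 0.22 (SE; adjusted p by limma = 0.990). Ildr2 had 2904 ± 328 in YT-ECKO and 2764 ± 604 in WT (SD, n = 4 each). Marveld2, which encodes tricellulin, had 508, 0, 421 and 133 for YT-ECKO 1 to 4, against 399, 0, 369 and 471 for WT 1 to 4. Igsf5 was at 0 to 417 in YT-ECKO and 0 to 536 in WT. Jam3, the third junctional adhesion molecule, was at 13.9, 452, 363 and 114 for YT-ECKO 1 to 4, against 125, 15.8, 423 and 8.95 for WT 1 to 4. Clmp, an adhesion molecule of the CAR family, was picked out after its values were seen. All 4 YT-ECKO libraries had a listed 0, and WT 1 to 4 had 138, 68.8, 91.8 and 288 scaled reads. Its adjusted p by limma was 0.738. Clmp passed the filter on low values only through the WT libraries, so its values are no support for a difference. Of all tested genes, 2.07% were likewise without overlap and lower in YT-ECKO.

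Of 22 scaffold and polarity genes, 17 were tested, with 9 higher, 8 lower and 0 called, and a median log2 difference of 0.01. Tjp3 was above 0 in 1 library, WT 3, at 250 scaled reads. Arhgef2, a RhoA exchange factor that binds the junction, had 3703 ± 2193 in YT-ECKO and 4494 ± 1401 in WT, and Tjap1 had 2181 ± 918 in YT-ECKO and 1491 ± 1047 in WT. Ybx3, which encodes the ZO-1 binding factor ZONAB, had 1704 ± 826 in YT-ECKO and 1878 ± 244 in WT (SD, n = 4 each).

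**Figure D5:**
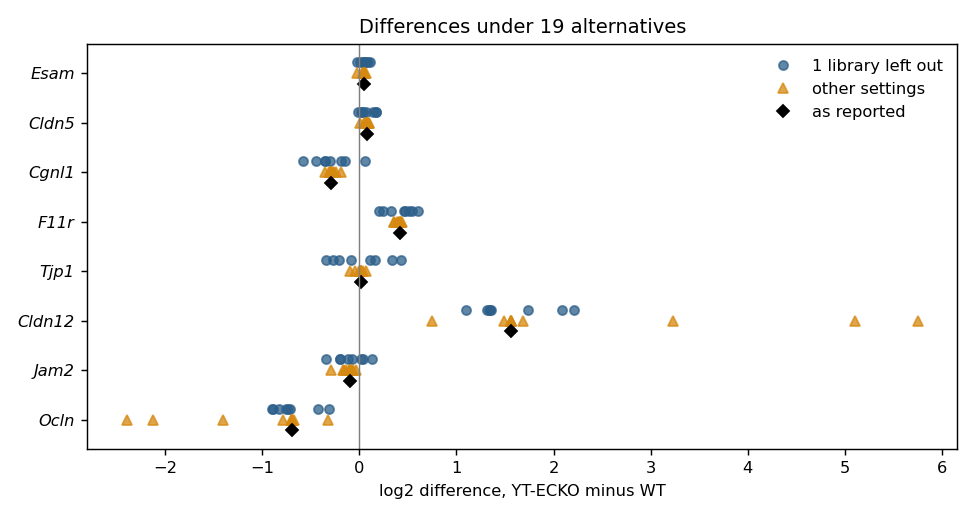
Log2 difference, YT-ECKO minus WT, of the 8 tested members as reported (black), with 1 library left out (blue) and under other settings (orange), 19 alternatives each. Cldn5 and Esam stay near 0, Tjp1 lies on both sides of 0, and Cldn12 and Ocln move with the pseudocount.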

How the data were processed

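RNA of sorted brain endothelial cells was sequenced in 8 libraries. Libraries were prepared with a Lexogen Quant-Seq kit after Trizol extraction, per the labels' protocols. The genome build mm10 and the tools Bowtie2 and edgeR are named per the submitters' processing notes. How reads were counted, with which annotation and strand, and all versions are not given in the sources used. For each gene symbol the authors deposited a log2 value, a unit inferred from the numbers themselves. Linear values are 2 raised to that value, and 0 where 0 was listed. Below 12, between 88.3% and 100% of them fell within 0.1 of whole multiples of a step (0.611 to 1.55), and they were read as scaled read counts; depth is therefore implied. Deposited values have at most 3 decimals, so different genes can share a value by rounding.

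YT-ECKO was set against WT with limma 3.58.1 (R 4.3.3; trended, robust) on log2 of scaled reads plus 2 to the power 7, for genes reaching 10 scaled reads in 4 libraries, with Benjamini-Hochberg adjustment over all tested genes and 0.05 as the threshold. Exact permutation tests used all 70 splits and cannot give a p below 0.0286. The functions were tested on simulated data. Coordinates and lengths are from GENCODE M21 on GRCm38. Members and lists were chosen with earlier results of these data known. Named genes are the members, Yap1 and Wwtr1, the 4 most abundant genes of each list of other junction genes, the 2 nearest genes of each abundant member and the 2 most abundant genes of each list of other cells. Jam3, Cldn3, Tjp3 and Clmp were added afterwards. Some genes that this rule names are not reported here. Alternatives were 3 pseudocounts, 2 filters, 3 scalings, voom, a replicate block, a Rn45s covariate and each library left out.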

Additional observations from a re-analysis of the deposited data

Results flagged for a closer look

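Cldn12 in WT was the one of 16 combinations of a member and a group in which a single library lay far from the other 3. WT 1 stood at 661 scaled reads and the next, WT 2, at 5.78, a gap of 0.991 of the whole range, above Dixon's 95% critical value for 4 samples. About 5% of groups of normally distributed values pass this limit by chance. How often genes at this low level pass it on the linear scale used here was not measured. Without WT 1 the log2 difference of Cldn12 was 2.21 ± 0.71 (SE) and its adjusted p by limma was 0.856. This adjusted p lay within a range of 0.650 to 0.997 over the 19 alternatives. The larger difference is no support, since it leaves out the WT library that goes against it.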

How the results depend on the processing

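No member was called as reported or under any of the 19 alternatives. The number of called genes, 3 as reported, was 0 with a pseudocount of 1, without a filter and with voom, 5 with the replicate block, and 0 to 6 with 1 library left out (0 without WT 2, 1 without WT 1, 6 without YT-ECKO 3). Genes without overlap, 296 as reported, numbered 413 to 613 with 1 library left out, since 3 against 4 libraries overlap less often by construction. Cldn12, Ocln and F11r kept their sign in all 19 alternatives. Tjp1 turned to -0.0074 with upper quartile scaling, -0.047 with pan-endothelial scaling and -0.10 with voom, and Esam to -0.020 with pan-endothelial scaling; the cause was not tested. With 1 library left out, the log2 differences ran from -0.35 to 0.43 for Tjp1, from -0.58 to 0.060 for Cgnl1, from -0.35 to 0.13 for Jam2, from -0.012 to 0.17 for Cldn5 and from -0.023 to 0.11 for Esam. Pairing of the libraries by replicate number was not seen. The deviations of same-numbered libraries from their group means correlated at -0.03, -0.04, 0.07 and 0.08 over the tested genes. Many of these genes are low and noisy, so a pairing could be missed in this way. The replicate block left every member uncalled. Cldn12, Ocln and Jam2 lie at levels where listed zeros are common, which limits what can be seen of them.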
